A study of Mus musculus with 8 samples.

Results

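The genes described are the 3 CD3 chains Cd3d, Cd3e and Cd3g, the zeta chain Cd247, the kinases Lck and Zap70, the adaptor Lat, and the surface receptors Cd5 and Cd28. These 9 genes were chosen by name as the CD3 complex and the proximal part of T cell receptor signalling. All 9 were found among the 27639 genes with a count and among the 16456 genes that passed the filter on low counts and were tested. The data are messenger RNA counts from spleen tumours of 8 C57Bl6 mice. The series asks how loss of the POZ domain of Miz1 changes expression in B and T cell leukemia. Miz1 is a zinc finger transcription factor encoded by Zbtb17 that binds Myc, and its POZ domain lets the protein multimerize.

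The 4 groups were B cell tumours with wild-type Miz1 (B wt), B cell tumours with Miz1 lacking the POZ domain (B deltaPOZ), tumours named as CD4+ T cell tumours with wild-type Miz1 (T wt), and such T cell tumours with the deletion (T deltaPOZ). There were 2 libraries a group, each from a mouse of its own. A Cre line, an oncogene, age and sex are not given in the labels used here. The deposited count files carry different run tags for B and for T, so lineage and run cannot be told apart. The file names of all T libraries carry the word Notch, and those of T deltaPOZ also carry ENU, which those of T wt do not, so that the deletion and whatever ENU marks cannot be told apart in T.

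The T cell receptor has no enzyme of its own. Its antigen-binding chains sit in a complex with the CD3 chains and the zeta chain, whose cytoplasmic tyrosines are phosphorylated by Lck, a kinase held at the co-receptors Cd4 and Cd8. Zap70 then docks on the phosphorylated chains and phosphorylates Lat, a membrane scaffold from which the calcium, Ras and protein kinase C branches start. Cd28 adds the costimulatory signal, and Cd5 dampens the receptor and is set by the strength of its signal. B cells use a parallel machine built of Cd79a, Cd79b, Syk and Blnk, and Cd5 is also known from a subset of B cells.

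Every one of the 9 genes was far higher in the T than in the B tumours, from 18.7-fold for Zap70 to 364-fold for Cd3e in mean CPM, the count scaled to a fixed library size with its normalization factor. None passed the edgeR test for the POZ deletion in either lineage, where 0.00608% of tested genes passed in B and 0% in T. The B tumours did not lack the 9 transcripts evenly. Zap70, Lck, Lat, Cd5 and Cd247 lay at higher mean shares of their T level than the 3 CD3 chains, though not in every library, and Lat lay lower in both B deltaPOZ than in both B wt libraries, a difference that DESeq2 called and edgeR did not.

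Promoter sequences are shown for the 3 CD3 chains, because they lie together and showed the same order of libraries by pairs within B, and for Lat and Lck, because their levels set the B libraries apart. The windows are the 250 bases before each start site in RefSeq, build GRCm38.p6, printed 5′ to 3′ on the gene's strand. Of the 9 genes 8 had an entry in the promoter table, Cd28 being the exception, with 11 entries in all. Capitals mark matches on either strand to 5 short motifs: the ETS core GGAAG, the RUNX core TGTGGT, the E-box CAGNTG, the TCF core CTTTGA and the TATA box TATAAA. No searched motif is contained in another. Cd3g and Cd3d start 1355 bases apart and are read away from each other. The Cd3g window is chr9:44980432-44980681 on the minus strand, the Cd3d window chr9:44981536-44981785 on the plus strand, and the Cd3e window chr9:45009612-45009861 on the minus strand. For the Cd3e window the bases just after the start site were not found in the gene's GENCODE transcripts. Those of the other windows printed here were found, and those of a Zap70 window counted below were not. The Lat window is chr7:126369569-126369818 on the minus strand. Lck has 2 start sites in the table, both on the minus strand, at chr4:129573642-129573891 (distal) and chr4:129558373-129558622 (proximal).
Cd3g promoter: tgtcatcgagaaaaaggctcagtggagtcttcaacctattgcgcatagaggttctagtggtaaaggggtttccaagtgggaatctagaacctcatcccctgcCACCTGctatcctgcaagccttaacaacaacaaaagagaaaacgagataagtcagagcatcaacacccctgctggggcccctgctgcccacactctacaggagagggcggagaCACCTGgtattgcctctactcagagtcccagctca
Cd3d promoter: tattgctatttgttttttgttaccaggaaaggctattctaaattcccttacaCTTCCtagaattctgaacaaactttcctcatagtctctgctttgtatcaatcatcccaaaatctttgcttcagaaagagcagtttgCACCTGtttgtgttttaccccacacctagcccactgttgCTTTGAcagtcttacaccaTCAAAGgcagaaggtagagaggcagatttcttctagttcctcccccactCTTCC
Cd3e promoter: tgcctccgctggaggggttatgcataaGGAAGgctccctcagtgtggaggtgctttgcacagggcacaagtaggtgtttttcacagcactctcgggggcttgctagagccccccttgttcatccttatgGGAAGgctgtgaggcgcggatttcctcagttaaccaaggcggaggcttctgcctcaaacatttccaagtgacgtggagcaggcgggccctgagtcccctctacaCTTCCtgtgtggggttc
Lat promoter: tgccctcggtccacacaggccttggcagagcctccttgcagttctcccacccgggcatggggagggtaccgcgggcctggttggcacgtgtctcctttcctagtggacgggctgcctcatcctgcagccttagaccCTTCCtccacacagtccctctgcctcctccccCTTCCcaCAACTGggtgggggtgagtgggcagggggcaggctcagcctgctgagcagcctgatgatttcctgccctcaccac
Lck distal promoter: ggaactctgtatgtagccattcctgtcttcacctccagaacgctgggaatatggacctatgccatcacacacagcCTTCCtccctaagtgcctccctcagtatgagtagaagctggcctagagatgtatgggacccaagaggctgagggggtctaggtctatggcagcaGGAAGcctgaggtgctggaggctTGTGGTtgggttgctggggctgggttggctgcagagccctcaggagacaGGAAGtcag
Lck proximal promoter: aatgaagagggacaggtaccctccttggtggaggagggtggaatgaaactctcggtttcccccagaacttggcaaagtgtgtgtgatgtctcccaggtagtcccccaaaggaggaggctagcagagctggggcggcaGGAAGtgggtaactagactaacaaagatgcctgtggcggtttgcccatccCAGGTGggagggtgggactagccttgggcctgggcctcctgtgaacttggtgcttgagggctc

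The Cd3d window held 2 ETS cores, 1 E-box and 2 TCF cores, the Cd3e window 3 ETS cores, and the Cd3g window 2 E-boxes and no ETS core. The Lat window held 2 ETS cores and 1 E-box. The distal Lck window held 3 ETS cores and 1 RUNX core, and the proximal one 1 ETS core and 1 E-box. Over the 11 windows, 9 held an ETS core, against 64.1% of the 32851 windows of the table. An E-box was in 8 of the 11 against 44.8% of all, and a RUNX core in 2 against 14.05%. A TCF core was in 2 of the 11 windows against 13.8% of all, and a TATA box in none against 12.4%. A match describes the letters of the window and nothing more.

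Library depth was 44.33 to 58.27 M gene counts, and a count of 0 allowed up to 0.0515 to 0.0677 CPM. The 7 B cell markers (Cd79a, Pax5 and others) summed to 1675 to 2576 CPM in the B and 23.3 to 129 CPM in the T libraries, with none at 0. Cd8a was above Cd4 in all 4 T libraries in spite of the CD4+ name: per kilobase of exon, Cd8a was at 209 and 342 CPM (T wt) and at 97.8 and 178 CPM (T deltaPOZ), and Cd4 at 82.1, 107, 24.5 and 29.4. Erythroid markers summed to 3388 to 17894 CPM in the T and 4.45 to 209 CPM in the B libraries. Macrophage markers stood highest in B wt 2 and neutrophil markers in T wt 1, and T deltaPOZ 2 had the most genes with a count (25387 against 18339 to 21078), so results are also given without these 3 libraries. The B wt libraries held Xist, a transcript of female cells, at 975 and 1477 CPM and the B deltaPOZ libraries at 0.936 and 0.757 CPM, so sex and genotype cannot be told apart in B. In T, Xist was at 1246 CPM in T wt 1 and at 11.8 to 35.4 CPM in the other libraries. Ddx3y, a gene of the Y chromosome, was at 22.5 CPM in T wt 1 and at 142 to 184 CPM in the other T libraries, so every T library held both transcripts.

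**Figure D1:**
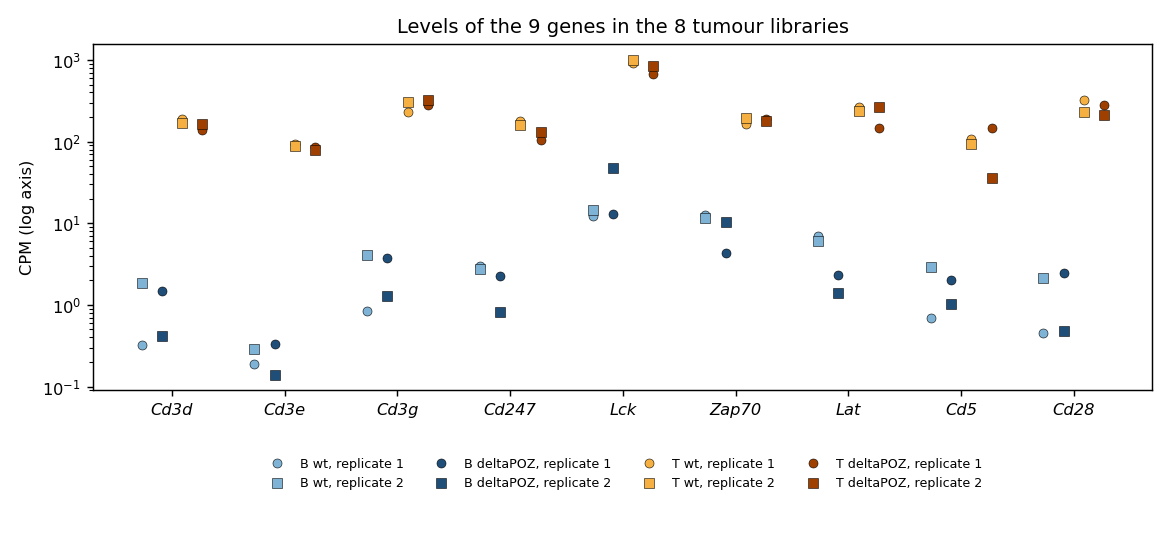
Level of each of the 9 genes in each library, in CPM on a log axis, with 1 point per library and the 4 groups in separate colours. For every gene the 4 T libraries lie above the 4 B libraries, and the gap is narrowest for Cd5 and Zap70, where the lowest T library is 12.4 and 13.0 times the highest B library.

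The 3 CD3 chains are the signalling modules that bring the receptor to the surface. Cd3d (ENSMUSG00000032094, GRCm38 chromosome 9, 44981786 to 44987339) was at 0.323 and 1.85 CPM (B wt), 1.46 and 0.419 CPM (B deltaPOZ), 190.3 and 167 CPM (T wt) and 138 and 165 CPM (T deltaPOZ). The T libraries kept within 1.38-fold of each other, and the T and B libraries did not overlap. Cd3d was 7.35 higher in T on the log2 scale (SE 0.67, edgeR adjusted p = 0.000826).

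Cd3e (ENSMUSG00000032093, chromosome 9, 44998740 to 45009627) had the widest gap of the 9 between T and B. It was at 0.190 and 0.289 CPM (B wt), 0.332 and 0.140 CPM (B deltaPOZ), 93.4 and 87.9 CPM (T wt) and 86.0 and 78.5 CPM (T deltaPOZ). Those B values rest on 7 to 17 counts a library, yet lie above the limit of a count of 0. Cd3e was 8.50 higher in T on the log2 scale (SE 0.32, edgeR adjusted p = 9.66e-05), and the T libraries were within 1.19-fold of each other. An antisense gene, Gm48719, overlaps its exons and is not in the count files.

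Cd3g (ENSMUSG00000002033, chromosome 9, 44969572 to 44980431) was at 0.835 and 4.09 CPM (B wt), 3.74 and 1.28 CPM (B deltaPOZ), 231 and 307 CPM (T wt) and 281 and 325 CPM (T deltaPOZ). The difference was 6.84 on the log2 scale (SE 0.64, edgeR adjusted p = 0.000874). T wt 1 had the lowest Cd3g of the 4 T libraries but the highest Cd3d and Cd3e. Cd3g and Cd3d, whose start sites lie 1355 bases apart, thus differed in their order within T.

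Cd247, the zeta chain with the most phosphorylation motifs of the complex (ENSMUSG00000005763, chromosome 1, 165788681 to 165877277), was at 2.96 and 2.71 CPM (B wt), 2.26 and 0.817 CPM (B deltaPOZ), 178 and 161 CPM (T wt) and 104 and 130.2 CPM (T deltaPOZ). It was 6.07 higher in T on the log2 scale (SE 0.35, edgeR adjusted p = 0.000234). Within each lineage both wt libraries were above both deltaPOZ libraries. Exons of Cd247 overlap those of Pou2f1 on the opposite strand and of Gm16565 on the same strand, and how such reads were counted is not given in the sources used here.

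Lck, the kinase that starts the cascade (ENSMUSG00000000409, chromosome 4, 129548344 to 129573641), was the most abundant of the 9 in T and ranked 92 of 16456 genes by mean CPM there. It was at 12.4 and 14.7 CPM (B wt), 13.1 and 47.9 CPM (B deltaPOZ), 907 and 1007 CPM (T wt) and 682 and 833 CPM (T deltaPOZ). B deltaPOZ 2 stood above the other B libraries, which were nearly level. Lck was 5.39 higher in T on the log2 scale (SE 0.44, edgeR adjusted p = 0.000610).

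Zap70, the kinase that docks on the phosphorylated chains (ENSMUSG00000026117, chromosome 1, 36761798 to 36782818), was at 12.7 and 11.6 CPM (B wt), 4.29 and 10.3 CPM (B deltaPOZ), 165 and 193 CPM (T wt) and 189.7 and 179 CPM (T deltaPOZ). The T libraries spanned 1.17-fold, the narrowest range of the 9. Its difference of 4.27 on the log2 scale was the smallest of the 9 (SE 0.30, edgeR adjusted p = 0.000371).

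Lat, the scaffold phosphorylated by Zap70 (ENSMUSG00000030742, chromosome 7, 126363824 to 126369570), was at 6.89 and 6.09 CPM (B wt), 2.32 and 1.40 CPM (B deltaPOZ), 267 and 240.0 CPM (T wt) and 147 and 263 CPM (T deltaPOZ). T deltaPOZ 1 was low among the T libraries, and in B both wt libraries were above both deltaPOZ libraries. The T minus B difference was 6.03 on the log2 scale (SE 0.29, edgeR adjusted p = 0.000187).

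Cd28, the costimulatory receptor (ENSMUSG00000026012, chromosome 1, 60716800 to 60773359), was at 0.456 and 2.16 CPM (B wt), 2.44 and 0.478 CPM (B deltaPOZ), 325 and 228 CPM (T wt) and 284 and 209 CPM (T deltaPOZ). It was 7.57 higher in T on the log2 scale (SE 0.73, edgeR adjusted p = 0.00103). Cd5, the brake on the receptor (ENSMUSG00000024669, chromosome 19, 10717116 to 10739002), was at 0.683 and 2.91 CPM (B wt), 2.01 and 1.04 CPM (B deltaPOZ), 109 and 94.6 CPM (T wt) and 146 and 36.1 CPM (T deltaPOZ). The 2 T deltaPOZ libraries were the highest and the lowest of the T libraries for Cd5. Its T minus B difference was 5.87 on the log2 scale (SE 0.69, edgeR adjusted p = 0.00182).

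All 9 genes thus passed the edgeR test as higher in T, where 19.3% of the tested genes did so (16% were called lower and 35.3% in either direction). DESeq2 and limma-voom called all 9 as well, where they called 41.9% and 35.3% of genes in either direction. In all 9 the T and B libraries did not overlap, against 20.1% of tested genes that were higher in T without overlap. The median difference of the 9 was 6.07 on the log2 scale and that of all tested genes 0.05. Without B wt 2, T wt 1 and T deltaPOZ 2 all 9 were still called, with differences of 4.29 for Zap70 to 8.65 for Cd3e and edgeR adjusted p of 0.00638 to 0.0270. In such bulk samples fewer cells of a type and less RNA per cell cannot be told apart.

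Levels can be compared between genes only per length of exon. In T the mean levels per kilobase were 293 CPM for Lck (233 to 344 over the 4 libraries), 91.0 for Cd3d (76.2 to 105), 87.4 for Cd3g (70.6 to 99.3), 82.8 for Lat (53.1 to 96.4) and 60.7 for Zap70 (55.0 to 64.4). Lower came Cd28 at 42.7 (34.2 to 53.0), Cd247 at 26.9 (19.6 to 33.3), Cd3e at 21.2 (19.2 to 22.9) and Cd5 at 19.6 (7.33 to 29.7). Lck stood clear of all others. Neighbours in this order overlapped over the libraries from Cd3d through Cd3g and Lat to Zap70, and from Cd247 through Cd3e to Cd5, while Cd28 overlapped neither of its neighbours. In B the order of means per kilobase began with Lck at 7.52 CPM (4.24 to 16.4), Zap70 at 3.25 (1.43 to 4.24) and Lat at 1.51 (0.504 to 2.49). It ended with Cd3e at 0.0582 (0.0342 to 0.0813). The ranges of Lck and Zap70 overlapped, as did those of Zap70 and Lat, and the highest value of Lck was that of B deltaPOZ 2. Exon lengths are the union over all annotated transcripts, so a gene with rare long exons is set too low on this scale.

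The B libraries held each transcript at a small share of its mean level in T. Zap70 was at 6.99 and 6.39% in B wt and 2.36 and 5.65% in B deltaPOZ, the highest mean share of the 9 at 5.35%. Lck followed at a mean of 2.57%, Lat at 1.82%, Cd5 at 1.72% and Cd247 at 1.53%. The 3 CD3 chains and Cd28 were lower, at 0.870% for Cd3g or less, with Cd3e at 0.275%. The receptor constant gene Trac was at 0.350 and 1.67% in B wt and 0.913 and 0.622% in B deltaPOZ. Zap70 lay above Trac in all 4 B libraries, by its lowest share of 2.36% against the highest of 1.67%.

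**Figure D2:**
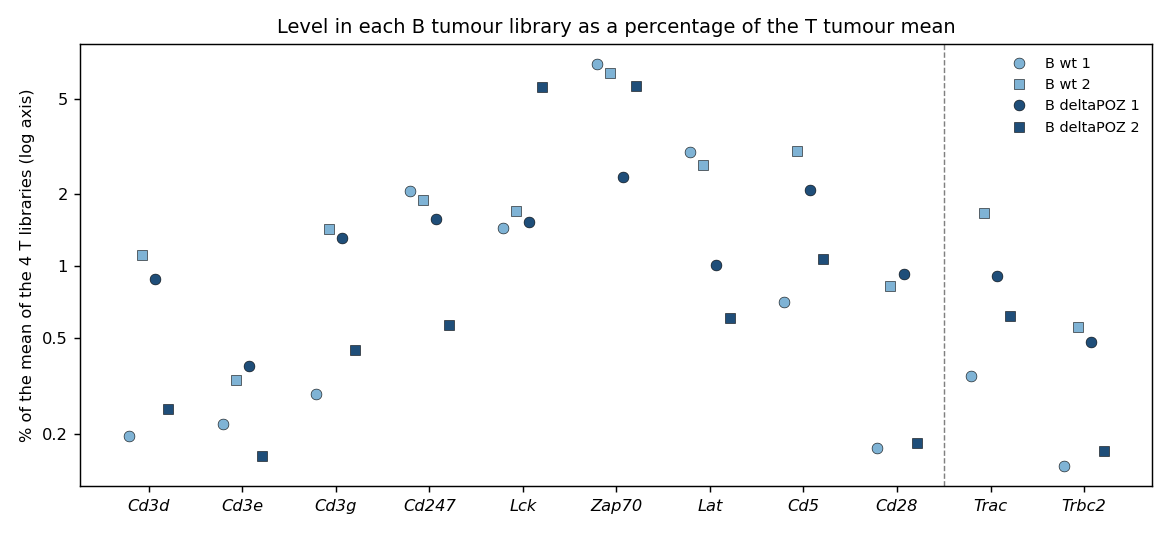
Level of each gene in each B library as a percentage of its mean over the 4 T libraries, on a log axis, for the 9 genes and, right of the line, receptor constant genes for comparison. The CD3 chains, Cd5 and Cd28 are higher in B wt 2 and B deltaPOZ 1 than in the other B libraries, whereas Cd247, Lck, Zap70 and Lat are not.

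Within B 5 of the 9 genes shared a pattern. Cd3d, Cd3e, Cd3g, Cd5 and Cd28 were higher in B wt 2 and B deltaPOZ 1 than in both other B libraries, 1 library of each genotype. The same order of pairs held for Trac, Trbc1, Trbc2, Cd4 and Cd8a, and for 16.6% of all tested genes. Cd4, for example, was at 11.3 and 12.6 CPM in that pair and at 2.01 and 1.12 in the others. The 7 macrophage markers moved the same way, at 748 and 405 CPM against 100.4 and 78.3, and so did the 5 NK cell markers, at 30.02 and 10.6 CPM against 3.19 and 2.05. The part of other cells in these levels was not tested.

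Cd247, Lck, Zap70 and Lat did not show that order. Cd247 and Lat were highest in B wt 1, where the CD3 chains Cd3d and Cd3g were lowest. Zap70 was lowest in B deltaPOZ 1, and Lck highest in B deltaPOZ 2. The T cell surface gene Thy1 was also highest in B deltaPOZ 2, at 11.6 CPM against 0.475 to 1.85. No other of the 10 T cell markers (Cd3d, Bcl11b and others) was highest there. Their sum was lowest there, at 56.2 CPM against 87.2 to 201 in the other B libraries. Most of that sum was Cd2, which is expressed by B cells too. Cd2 was at 40.2 CPM in B deltaPOZ 2 and at up to 197 CPM in the other B libraries. The 9 genes spanned 2.38-fold (Cd3e) to 5.72-fold (Cd3d) over the B libraries. The 7222 tested genes with a mean of 0.2 to 20 CPM in B had a median span of 2.92-fold (quartiles 1.78 and 6.73). Lck, at a B mean of 22.0 CPM, lay just above that range of means.

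Among the T libraries 8 of the 9 genes kept within 1.82-fold, against a median of 1.36-fold over the 4525 tested genes with at least 50 CPM in T. Cd5 was the exception with a 4.06-fold span. Cd3d, Cd247, Lck and Lat were lowest in T deltaPOZ 1, where 23.2% of all tested genes were lowest. From their own T means the deviations there were -0.60 for Lat, -0.43 for Cd247 and -0.32 for Lck on the log2 scale. Cd3e, Cd5 and Cd28 were lowest in T deltaPOZ 2, and Cd3g and Zap70 in T wt 1.

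**Figure D3:**
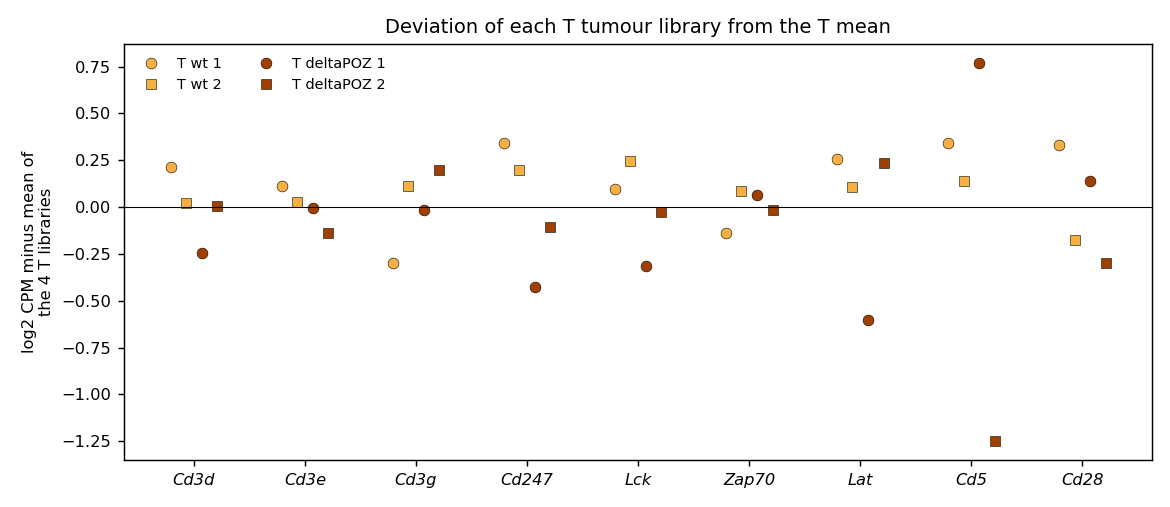
Deviation of each of the 9 genes from its own mean over the 4 T libraries, in log2 CPM, with 1 point per library. Cd5 ranges from -1.25 in T deltaPOZ 2 to 0.77 in T deltaPOZ 1, and Lat is at -0.60 in T deltaPOZ 1 with the other 3 libraries above 0.

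T deltaPOZ 1 also stood low in receptor genes outside the 9. Of the 10 tested receptor constant genes and co-receptors, 8 were lowest in it, where 23.2% of all tested genes were. Trbc1, a beta constant gene, was at 1.74 CPM there against 176 to 313 in the other T libraries. Ptcra, the partner of the beta chain in immature thymocytes, was at 19.0 CPM against 101 to 222, whereas Trbc2, the other beta constant gene, was at 249 CPM against 191 to 331. Of 15 adaptors, 9 were lowest in the same library, but only 1 of the 6 other proximal kinases, 2 of the 12 effectors downstream of Lat, 2 of the 15 brakes and 2 of the 12 other surface receptors. The 10 thymocyte stage markers, 3 of which (Ptcra, Cd4 and Cd8a) are also receptor genes above, summed to 930.0 CPM there against 2460 to 3654 in the other T libraries. Rag1, a recombinase of immature lymphocytes, was at 8.30 CPM against 758 to 1068, Rag2 at 0.0733 against 22.0 to 37.9 and Dntt at 5.13 against 112 to 417. The part of the thymocyte stage in these values was not tested.

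Cd5 was lowest in T deltaPOZ 2. Of the 11 tested genes that receptor signals induce, 7 were lowest in that library, where 24.5% of all tested genes were lowest. So were 4 of the 6 other proximal kinases, 6 of the 12 effectors downstream of Lat, 5 of the 12 other surface receptors and 4 of the 15 brakes. Only 1 of the 10 receptor constant genes and co-receptors, 1 of the 15 adaptors and 0 of the 11 B cell receptor counterparts were lowest there. Egr2, a transcription factor among the genes that receptor signals induce, was at 10.3 and 15.1 CPM in T wt, 17.5 in T deltaPOZ 1 and 2.88 in T deltaPOZ 2. Cd69, an early activation antigen, was at 18.02, 12.9, 18.7 and 4.92 CPM in the same order. Il2ra, a chain of the interleukin receptor and another gene of that set, went the other way, with 436 and 391 CPM in T wt, 471 in T deltaPOZ 1 and 604 in T deltaPOZ 2. These libraries come from different mice, and the order within T was read after the values were known.

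The deletion of the POZ domain was compared within B first. By edgeR 0 of the 9 genes passed, where 0.00608% of tested genes did, a single gene. At an unadjusted p under 0.05 there was 1 member, Lat, where 12.1% of tested genes lay. limma-voom called 0 of the 9 (0.0365% of genes) and DESeq2 1 of the 9, Lat (4.18% of genes). In 3 of the 9 the genotypes did not overlap in B, all 3 lower in deltaPOZ, against 38.9% of tested genes without overlap in either direction.

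Those 3 were Cd247, Zap70 and Lat. Lat differed by -1.80 on the log2 scale (SE 0.35, edgeR adjusted p = 0.196, DESeq2 adjusted p = 0.000536). Without B wt 2 and the 2 doubted T libraries the value was -1.89, with an edgeR adjusted p of 0.420. Cd247 differed by -0.88 (SE 0.43, edgeR adjusted p = 0.456) and Zap70 by -0.74 (SE 0.37, edgeR adjusted p = 0.471). Neighbours of Lat within 10 Mb with at least 10 CPM, 129 genes, had a median difference of -0.09, those of Cd247 -0.12 and those of Zap70 0.02.

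Lck differed by 1.17 (SE 0.53, edgeR adjusted p = 0.437). B deltaPOZ 2 was the highest B library for Lck, and B deltaPOZ 1 lay between the wt libraries. Its 168 neighbours on chromosome 4 had a median difference of 0.49 in B. The medians of these neighbours were -0.23 and -0.25 from their B mean in B wt and 0.28 and 0.20 in B deltaPOZ, whereas Lck itself was at -0.57, -0.33, -0.49 and 1.38. Lck thus did not follow its neighbours in B deltaPOZ 1. The part of the chromosome in the value for B deltaPOZ 2 was not tested.

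The CD3 chains, Cd5 and Cd28 gave values near 0 in B with wide errors. Cd3d differed by -0.18 (SE 0.80), Cd3e by -0.01 (SE 0.44) and Cd3g by 0.04 (SE 0.74). Cd5 differed by -0.23 (SE 0.84) and Cd28 by 0.18 (SE 0.85), and the edgeR adjusted p of these 5 lay between 0.940 and 1. In each of the 5 the 2 libraries of a genotype lay on opposite sides of the split described above, and without the 3 doubted libraries the values were 1.53 for Cd3d, 0.31 for Cd3e, 1.58 for Cd3g, 1.15 for Cd5 and 1.66 for Cd28, with 1 B wt library left. A change of the size of these errors could not be detected.

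**Figure D4:**
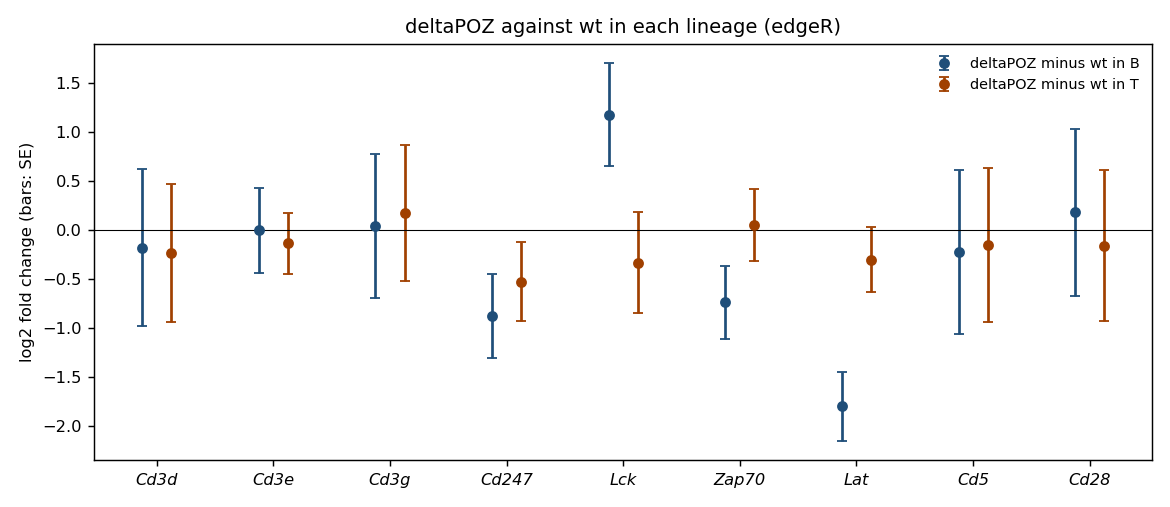
Difference between deltaPOZ and wt for each of the 9 genes in B and in T, as log2 fold change with bars of 1 SE derived from the edgeR test. Lat in B, at -1.80, lies farthest from 0, and in T all 9 values lie between -0.53 and 0.17.

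In T 0 of the 9 genes passed the edgeR test for the deletion, as did 0% of tested genes, and 0 lay at an unadjusted p under 0.05, where 2.65% of genes lay. DESeq2 called 0 of the 9 and 0.298% of genes, and limma-voom 0 of both. Cd247 differed by -0.53 (SE 0.40), Lck by -0.34 (SE 0.52), Lat by -0.31 (SE 0.33) and Cd3d by -0.24 (SE 0.70). Cd3g differed by 0.17 (SE 0.69), Zap70 by 0.05 (SE 0.37), Cd3e by -0.14 (SE 0.31), and Cd5 and Cd28 by -0.16 each (SE 0.78 and 0.77). All 9 had an edgeR adjusted p of 1. In Cd3d, Cd3e, Cd247 and Lck both T deltaPOZ libraries were below both T wt libraries, 4 of 9, against 32.4% of tested genes without overlap in either direction. Cd247 was the gene of the 9 with such an order in both lineages. In B 38.9% of tested genes were without overlap in either direction, and the share without overlap in both lineages was not counted.

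Averaged over both lineages, 0 of the 9 genes passed by edgeR, as did 0% of tested genes, while Cd247 and Lat were 2 of the 9 at an unadjusted p under 0.05 (8.9% of genes). Lat was at -1.05 (SE 0.24, edgeR adjusted p = 0.400, DESeq2 adjusted p = 0.0110) and Cd247 at -0.70 (SE 0.29, edgeR adjusted p = 0.560). DESeq2 called 1 of the 9, Lat, and 1.93% of genes, and limma-voom 0 of both. The difference between the lineages in the effect of the deletion was tested directly. None of the 9 passed by edgeR (0% of genes), DESeq2 (1.38%) or limma-voom (0%), and 1, Lat, lay at an unadjusted p under 0.05 (6.26% of genes). For Lat the effect in T minus that in B was 1.50 (SE 0.48, edgeR adjusted p = 0.719), and for Lck -1.51 (SE 0.74, edgeR adjusted p = 0.809).

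Other genes of the pathway were taken in 8 lists by role. All 10 tested receptor constant genes and co-receptors were called higher in T, with a median of 7.55 on the log2 scale against 0.05 over all tested genes. Trbc1 was higher by 8.35 (SE 1.65), Trbc2 by 8.19 (SE 0.56) and Ptcra by 8.15 (SE 0.96). Over all tested genes 19.3% were called higher and 16% lower. Of the 6 other proximal kinases, 4 were called higher and 2 lower. Txk, a Tec family kinase, was higher by 4.57 (SE 0.50) and Fyn, a relative of Lck, by 3.37 (SE 0.37). Tec differed by -1.93 (SE 0.27) and Csk, which restrains Lck, by -0.86 (SE 0.13).

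Of the 15 adaptors 12 were called higher and 0 lower, against 19.3% and 16% of all tested genes, with a median of 3.56. Sh2d1a was higher by 8.14 (SE 0.61), Trat1, which binds the receptor complex, by 7.74 (SE 0.68), and Themis, needed for thymocyte selection, by 7.44 (SE 0.75). Of the 12 effectors downstream of Lat 6 were called higher and 0 lower, with a median of 1.02. Prkcq, the protein kinase C of the T cell synapse, was higher by 5.35 (SE 0.67), Plcg1, the phospholipase bound by Lat, by 2.33 (SE 0.30) and Nfatc2 by 2.18 (SE 0.35).

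Among 15 phosphatases, ubiquitin ligases and other brakes, 8 were called higher (19.3% of all tested genes) and 0 lower (16% of all), with a median of 1.71. Sla2 was higher by 6.29 (SE 0.41), Ptpn22, a phosphatase that acts on Lck, by 4.87 (SE 0.32) and Sla by 3.08 (SE 0.18). Of 12 other surface receptors 9 were called higher and 0 lower, with a median of 3.53. Cd27 was higher by 7.50 (SE 0.64), Lag3 by 5.68 (SE 0.90) and Cd6, the relative of Cd5, by 5.12 (SE 0.78).

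Of 11 tested genes induced by receptor signals 7 were called higher and 2 lower, with a median of 2.25, where all tested genes had 19.3% higher and 16% lower. Il2ra was higher by 9.42 (SE 0.41), Egr2 by 4.003 (SE 0.80) and Egr1 by 3.09 (SE 0.64), whereas Spry1 differed by -3.42 (SE 0.93) and Irf4 by -1.80 (SE 0.44). All 11 counterparts of the B cell receptor were called lower, as were 16% of all tested genes, with a median of -4.11. Cd79b differed by -5.03 (SE 0.53) and Blnk, the B cell relative of the adaptor Lcp2, by -4.95 (SE 0.49). No gene of any of the 8 lists passed the edgeR test for the deletion in B, in T, in their mean or in their difference. Over all tested genes 0.00608% passed in B, a single gene, and 0% in T, in the mean and in the difference.

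**Figure D5:**
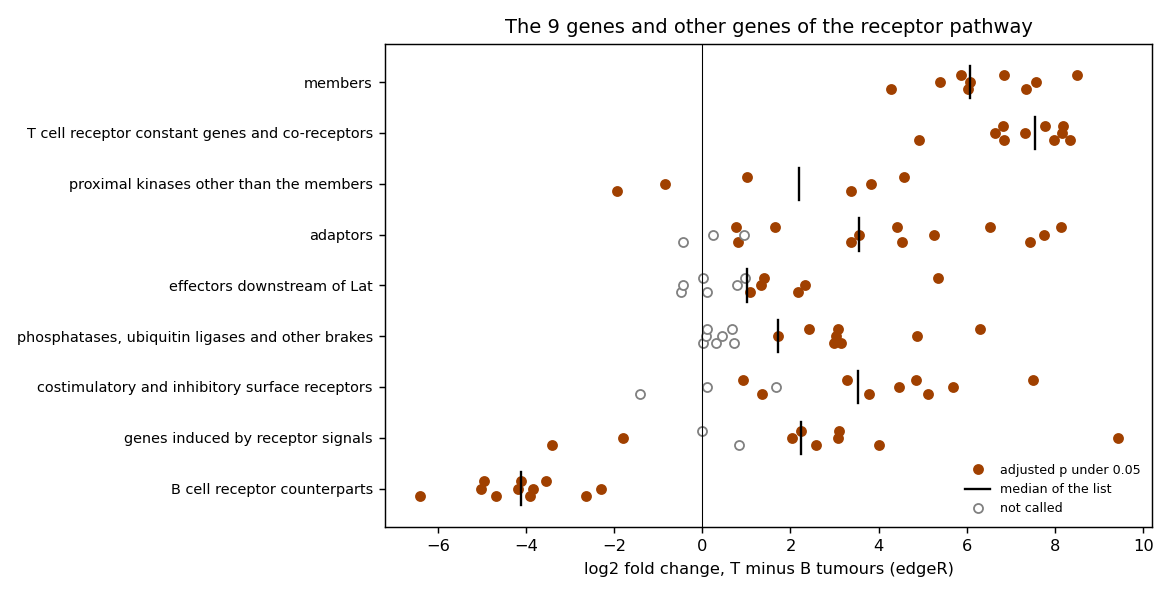
T minus B difference of the tested genes of the 8 pathway lists and of the 9 genes described, as log2 fold change from edgeR, with 1 point per gene. Receptor constant genes and co-receptors have a median of 7.55, effectors downstream of Lat 1.02 and B cell receptor counterparts -4.11.

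The genes whose profile over the 8 libraries was most like the mean of Cd3d, Cd3e and Cd3g were sought among 10986 genes with a group mean of at least 5 CPM, by the root mean square distance of centred log2 CPM. Trat1 was nearest at 0.21, then Cd27 at 0.24, Tcf7 at 0.31, Cd28 at 0.32, Sh2d1a at 0.35, Trbc2 at 0.37, Bcl11b at 0.41 and Hectd2 at 0.44. Cd28 was thus the only other member among the nearest 8. Cd247 ranked 103, Cd5 126, Lat 171, Lck 233 and Zap70 383. The measure is led by the T minus B difference that these genes share. Over the 4 T libraries alone the nearest were Arpc1a, Snap29, Pef1, Zfp800 and Rbbp8, all of them nearly level over the T libraries, as was the mean of the 3 chains.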

How the data were processed

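Messenger RNA of 8 spleen tumours was made into TruSeq Stranded libraries, per the labels' protocols. Per the submitters' processing notes, the authors aligned reads to mm10/GRCm38 with TopHat2 2.0.10 and deposited raw counts per gene from HTSeq; SAMtools and DESeq are also named. The annotation release, strand setting and overlap rule were not given in the sources used here. No-feature counts (30.4 to 39.3% of gene, no-feature and ambiguous counts) and ambiguous counts (0.471 to 0.554%) were left out. GENCODE M21 named 40340 of 41214 identifiers.

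From the deposited counts, edgeR 4.0.16 (R 4.3.3) took trimmed-mean scaling factors, the filterByExpr filter and a quasi-likelihood fit of all 8 libraries with 1 mean per group, which left 4 residual degrees of freedom at a biological coefficient of variation of 0.45. Calls used a Benjamini-Hochberg adjusted p under 0.05 over 16456 genes. Alternatives were limma-voom (limma 3.58.1), DESeq2 1.42.0, its size factors, other filters, removal of receptor segments, each lineage alone and leaving out each library. The limit at 0 rests on 3 counts and covers counting error only. The code was tested on simulated data. Replicates were numbered in accession order and are not pairs.

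The members and lists were chosen with earlier results of these data known. Named beside the 9 genes were Trac, Trbc1, Trbc2, Cd4 and Cd8a, up to 3 called genes per list and direction with the largest change and a group mean of at least 5 CPM, markers that move with a result, and the 8 (over T, 5) genes nearest in profile. Genes named in the paragraphs on single libraries were chosen after their values were seen. Trdc did not match an identifier of the files. A few single-gene values that this rule would name are left out.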

Additional observations from a re-analysis of the deposited data

Results flagged for a closer look

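Lck was the gene of the 9 for which 1 library stood far from the other 3 of its lineage. In B its level was 12.4, 14.7 and 13.1 CPM in 3 libraries and 47.9 CPM in B deltaPOZ 2. The gap from that library to its nearest neighbour made up 0.877 of the whole range in log2 CPM, above Dixon's critical value for 4 samples. The 9 genes were looked at in B and in T, 18 groups of 4 libraries in all, and chance alone marks about 1 group in 20. The 4 B libraries hold both genotypes, since a genotype has only 2 libraries. Among the B libraries Thy1 was also highest in that library, at 11.6 CPM, and Rasgrp1, at 710.0 CPM. No other of the 10 T cell markers was highest there, and their sum was the lowest of the B libraries, at 56.2 CPM against 87.2 to 201. The erythroid markers summed to 209 CPM there against 4.45 to 11.4 CPM in the other B libraries, and their part in the level of Lck was not tested.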

How the results depend on the processing

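No paired analysis was possible because the labels give no replicate numbers, and the numbers used only follow the order of the records. In T minus B all 9 genes were called higher under all 15 other settings. Over all genes the T minus B calls numbered 5801, 3621 to 4900 when each library was left out, and 1312 without B wt 2, T wt 1 and T deltaPOZ 2, a setting chosen after seeing the data that leaves 1 library in 3 groups, assumed to vary like the other group. The deletion in B and the mean over the lineages gave 0 of the 9 by edgeR and 1 each by DESeq2 (Lat); the cause was not tested. In B, where 1 gene was called, 9 were with the filter of 5 CPM in 2 libraries and 6 with each lineage fitted alone. Lat in B ran from -2.16 to -1.48 with a library left out (edgeR adjusted p 0.196 to 0.417), and over all settings its adjusted p ran from 0.000536 to 0.461. Small differences changed sign. In B limma-voom gave 0.063 for Cd3d and 0.068 for Cd5, the filter on a total of 10 counts gave 0.046 for Cd3e, and the fit without the 3 libraries gave 1.53 for Cd3d, 0.31 for Cd3e and 1.15 for Cd5. In T the latter gave -0.15 for Cd3g, -0.045 for Zap70, 0.61 for Cd5 and 0.29 for Cd28. With a library left out, B values ran from -1.30 to 1.60 for Cd3d, -0.70 to 0.48 for Cd3e, -0.89 to 1.65 for Cd3g, -0.047 to 1.88 for Lck, -0.93 to 1.22 for Cd5 and -1.38 to 1.74 for Cd28. T values ran from -0.023 to 0.39 for Cd3g, -0.066 to 0.17 for Zap70, -0.78 to 0.048 for Lat, -1.50 to 0.53 for Cd5 and -0.40 to 0.11 for Cd28. The mean over the lineages ran from -0.19 to 0.77 for Lck, and the difference between them from -0.20 to 1.22 for Cd247. The lowest counts were those of Cd3e in B, 7 to 17 a library, yet its SE there, 0.44, was below the 0.74 to 0.85 of Cd3d, Cd3g, Cd5 and Cd28.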

Other observations

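Some partners of Lat and Lck in the B tumours differed between single libraries by more than the 9 genes did. They were chosen after their values were seen, and none passed the edgeR test for the deletion in B, where 0.00608% of tested genes did. Plcg1, the phospholipase recruited by Lat, was at 75.9 and 88.0 CPM in B wt and 22.1 and 8.97 in B deltaPOZ. The difference was -2.40 on the log2 scale (SE 0.43, edgeR adjusted p = 0.164), and the genotypes did not overlap. Sit1, a membrane adaptor that dampens receptor signals, was at 33.4 and 14.8 CPM in B wt and 0.995 and 3.93 in B deltaPOZ, a difference of -3.29 (SE 0.73, edgeR adjusted p = 0.235). Both were lower in both deltaPOZ libraries, as Lat was, and 38.9% of tested genes were without overlap between the genotypes in B, in either direction.

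Rasgrp1, which activates Ras downstream of Lat, was at 26.4 and 16.7 CPM in B wt and 83.8 and 710.0 in B deltaPOZ, a difference of 4.202 (SE 0.95, edgeR adjusted p = 0.235). Its level in B deltaPOZ 2 was above all 4 T libraries, which lay at 111 to 251 CPM. Lat2, the relative of Lat used by B cells, was at 7.40 and 12.8 CPM in B wt and 5.71 and 57.9 in B deltaPOZ (1.65, SE 0.97, edgeR adjusted p = 0.524). In B deltaPOZ 2 the lowest Lat of the 8 libraries stood beside the highest Lat2.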
